A study of Mus musculus with 18 samples.

Results

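Translational efficiency describes how much of a gene's RNA is carried by ribosomes, and it was taken as the log2 difference between polysomal and total RNA. The comparison described here sets that difference in sorted myeloid-derived suppressor cells (MDSC), averaged over their LY6C and LY6G populations, against the same difference in bone marrow. It used all 18 of the 18 libraries of the series, 12 from sorted cells and 6 from marrow, and each of the 6 groups held 3 libraries. All animals were C57BL/6 mice of WT genotype, whose age the labels do not give. The LY6C cells were CD11b high, Ly6G negative and Ly6C high, and the LY6G cells were CD11b high, Ly6G high and Ly6C intermediate. Both were sorted from marrow cultures after 5 days of differentiation, replated, and collected on the following day with cycloheximide. Bone marrow (BM) was flushed from the femurs of 3 mice and its red cells were lysed, so it was a mixture of cells that had been neither cultured nor sorted. In each kind of cell, T stands for total RNA and P for polysome-bound RNA. The labels call the replicates independent biological ones. They number those of sorted cells 2, 3 and 6 and those of marrow 1, 2 and 3, and values below follow that order.

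MDSC are immature monocytic and granulocytic cells that restrain T cell responses. When several ribosomes translate 1 mRNA, the mRNA sediments in the heavy polysomal part of a sucrose gradient, whereas an RNA that is not being translated stays in lighter fractions. Some classes of mRNA are known for regulated entry into polysomes. The mRNAs of ribosomal proteins and elongation factors start with a run of pyrimidines, the 5′ terminal oligopyrimidine (TOP) motif, and growth signals bring them into polysomes through mTOR and the LARP1 protein. Ferritin mRNAs carry an iron-responsive element at which iron regulatory proteins block translation. Nuclear long noncoding RNAs and the mRNAs made inside mitochondria are not translated by cytosolic ribosomes.

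The bone marrow libraries stood apart in depth and content. Total counts per library ran from 8559897 to 26225431. Nuclear protein-coding genes received 3236711 to 19740255 counts in each sorted library, 274914 to 598151 in each BM_P library and 54944 to 76341 in each BM_T library. They made up 37.3% to 94.6% of the counts in sorted cells, 1.82% to 3.71% in BM_P and 0.232% to 0.291% in BM_T. Most other marrow counts were mitochondrial or ribosomal-like RNA. Levels are in CPM, counts scaled to library size with TMM factors. A CPM of 1 equalled 0.472 to 0.611 counts in a BM_T library. Stromal markers (Col1a1, Col1a2, Cxcl12, Bglap and Sparc) summed to 2723 to 6850 CPM in BM_T and 2003 to 6243 in BM_P, with Bglap at 0, and to at most 4.99 CPM in sorted cells. Erythroid markers summed to 315.9 to 393.8 CPM in BM_T and 464.9 to 861.5 in BM_P, against at most 6.92 in sorted cells. MDSC markers (Itgam, Lyz2, Cybb, S100a8 and S100a9) were all detected, at 1155 to 2432 CPM in sorted cells and 312 to 1480 in marrow. Granulocytic markers reached 2553 CPM in LY6C and 583.5 in LY6G libraries, so they did not mark the LY6G gate. In total RNA they summed to 305.5 to 2113 CPM in LY6C_T and 224.4 to 491.1 in LY6G_T. Ly6g itself stood at 1.62, 1.73 and 8.73 CPM in LY6G_T and 1.84, 4.16 and 4.16 in LY6C_T. Monocytic markers summed to 308.3 to 677.9 CPM in LY6C_T and 443.3 to 497.6 in LY6G_T, so they did not mark the LY6C gate either. Cell kind, culture, sorting and RNA content differ together between the groups, and they cannot be told apart in the comparison. Fewer cells of a type and less RNA per cell cannot be told apart either.

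Of 54838 genes, 14181 were tested, and translational efficiency was higher in sorted MDSC than in marrow for 29 genes (0.204% of those tested) and lower for 93 (0.656%; edgeR quasi-likelihood test, adjusted p under 0.05). Of these, 23 of the 29 and 91 of the 93 were protein-coding. For the others, and for mitochondrially encoded mt-Nd5, the value is read as a difference between fractions only. Genes with higher values included Tnfrsf14, a receptor of the TNF family, the autophagy receptor Optn and the myeloid transcription factor Spi1. Genes with lower values included Rps24, a protein of the small ribosomal subunit, the GTPase Cdc42 and the NADPH oxidase subunit Ncf1. The lowest adjusted p was 0.0048, and 2283 genes had an unadjusted p under 0.05. With a replicate block, which compares P and T within a number, the counts were 92 higher (0.649%) and 262 lower (1.85%). The block called 28 of the 29 and 71 of the 93 in the same direction. Leaving out 1 library at a time gave 16 to 67 higher and 40 to 132 lower. The split between directions depended on scaling. DESeq2 gave 238 higher and 58 lower, median-ratio factors 58 and 39, and scaling by nuclear protein-coding counts 33 and 29. The median of all tested genes lay at −0.63, or at −0.08 once genes with 0 counts in a marrow fraction were set to 3 counts over that group. It lay at 0.11 with DESeq2, so values of single genes are read beside it.

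The called genes are described here by the difference between fractions within each kind of cell. Polysomal minus total RNA in marrow passed the test in all 29 genes called higher, each lower in BM_P than in BM_T, and in 90 of the 93 called lower. That difference is a term of the comparison that chose these genes, so this is a description. In marrow as a whole, 368 genes were higher in polysomal RNA without the block (2.6%) and 113 were lower (0.797%). With the block these were 663 and 181. Marrow counts for gene lists below are from the fit without the block. In sorted cells 0 genes were called without the block (edgeR, lowest adjusted p 0.148, 1020 genes at an unadjusted p under 0.05). With the block, which fits the pairing seen in these libraries, 407 were higher in polysomal RNA (2.87%) and 633 were lower (4.46%). Of the genes called in the sorted minus marrow comparison, that test called 1 of the 29 and 7 of the 93 in sorted cells. The median size of the P minus T difference was 0.19 in sorted cells, both for the 29 genes and for the 93, and 3.69 in marrow for the 29. Over all tested genes it was 0.25 in sorted cells and 0.967 in marrow.

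**Figure D1:**
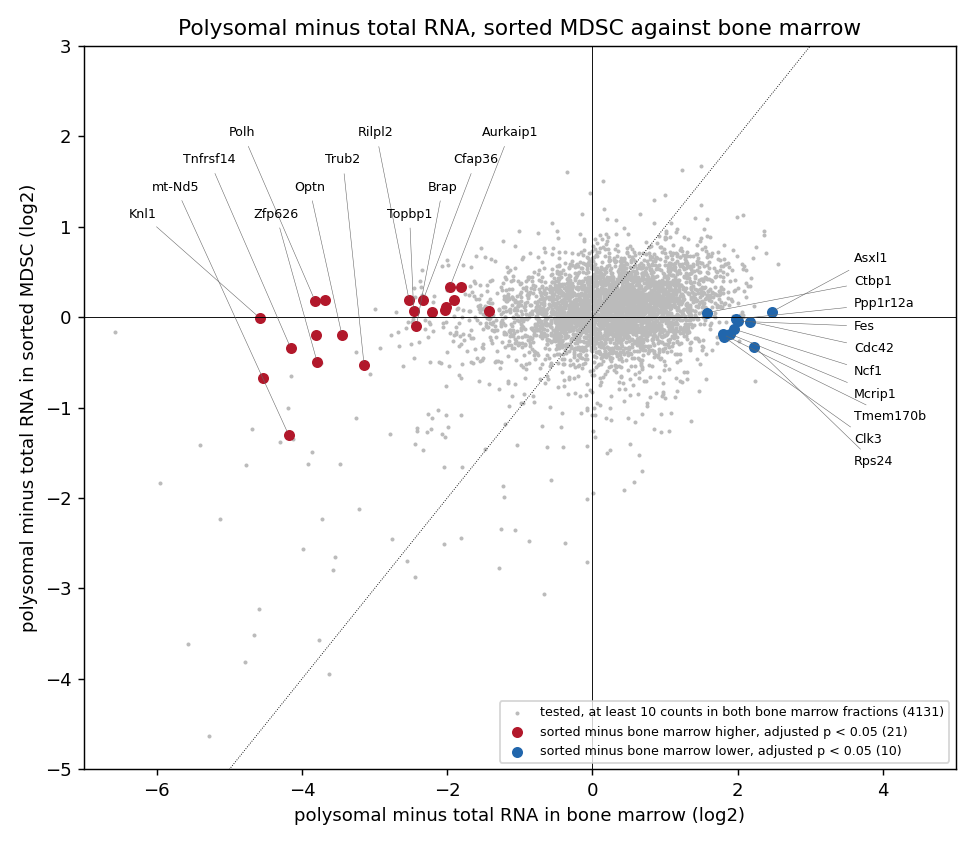
Polysomal minus total RNA (log2) in bone marrow on the horizontal axis and in sorted MDSC on the vertical axis, for the 4131 tested genes with at least 10 counts in each marrow fraction. Red points are the 21 of them with higher and blue points the 10 with lower translational efficiency in sorted MDSC. The named genes spread along the marrow axis and, apart from mt-Nd5 at −1.30, lie between −0.53 (Trub2) and 0.33 (Aurkaip1) on the vertical axis.

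Many of the called genes had few counts in total marrow RNA. Of the 93 genes called lower, 54 had 0 counts over the 3 BM_T libraries, as did 4662 of all 14181 tested (32.9%), and 18 more had 1 to 3. Only 10 of the 93 reached 10 counts in both marrow fractions, against 21 of the 29 called higher and 29.1% of all genes. For the 54 genes the fold could be given as a bound only, from at least 2.52-fold to at least 14-fold lower, with a median of 3.77. Their BM_P counts, summed over 3 libraries, ran from 32 to 178. When testing was limited to the 4131 genes with at least 10 counts in each marrow fraction, a choice made after seeing the data, 39 genes were higher and 11 lower. The direction held by most called genes thus turned. All 22 genes named below by rule were among those 50. That rule already asked for a call and for these marrow counts in the same libraries, so their presence was largely set beforehand.

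**Figure D2:**
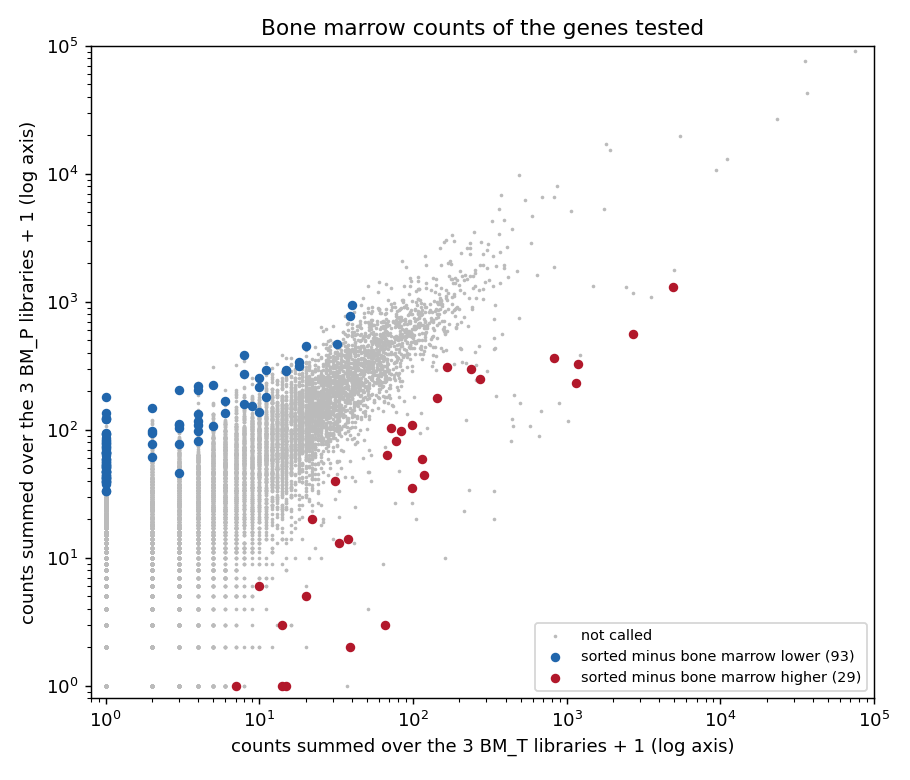
Counts summed over the 3 BM_P libraries against counts summed over the 3 BM_T libraries, each plus 1 on a log axis, for the 14181 tested genes. Blue points, the 93 genes with lower efficiency in sorted MDSC, gather at the left edge, where 54 have 0 counts in BM_T, and red points, the 29 with higher efficiency, lie below the cloud.

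Rps24 was the single gene among 79 cytosolic ribosomal protein genes whose efficiency was called lower in sorted MDSC (0.656% of all genes tested were). It encodes a part of the small ribosomal subunit that acts in processing of ribosomal RNA. The annotated starts of Rps24 and 3 other translation genes are printed here to show the runs of pyrimidines around them. The letters are from RefSeq on GRCm38.p6, 5′ to 3′ on the gene's strand, from 5 bases before the start through the first 20 transcribed bases. Capitals mark the run of pyrimidines that holds the start.
Rps24, chr14:24490673-24490697 (plus strand): ggTCCTTCCTTgcgcgttgatatga
Rps6, chr4:86857348-86857372 (minus strand): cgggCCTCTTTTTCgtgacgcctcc
Rack1, chr11:48800355-48800379 (plus strand): TCTTTCTTTTTCTCCacagggtcgt
Eef1a1, chr9:78481705-78481729 (minus strand): CCCTCTTCCCgagggtgggggagaa
Within the printed bases, runs of 9 to 15 pyrimidines surround these 4 starts. The runs of Rack1 and Eef1a1 begin at the first printed base and could reach further. Among all 27025 gene symbols with a promoter in the table, 3.01% had a C at the start followed by 4 bases that were each C or T. The share was 24.1% of the 58 ribosomal protein genes found there, 22.2% of 18 other TOP genes and 0 of 33 initiation and elongation factors. The starts printed above for Rps24 and Eef1a1 have a T as the first transcribed base and do not meet that condition. The start letter follows the annotation and can be off by some bases.

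Rps24 (ENSMUSG00000025290, chromosome 14, 24487125 to 24496959, build GRCm38) stood at 21.2, 11.5 and 4.13 CPM in BM_T and 63.3, 70.5 and 38 in BM_P. Its levels were 21.3, 17.3 and 17.4 CPM in LY6C_T, 14.5, 19 and 17.4 in LY6C_P, 34.4, 38.6 and 22.9 in LY6G_T and 32, 18.7 and 16.7 in LY6G_P. Every BM_P library lay above every BM_T library, whereas the 2 fractions of sorted cells overlapped in LY6C and in LY6G. The difference of sorted minus marrow was −2.55 ± 0.52 on the log2 scale (SE, n = 3 per group, edgeR adjusted p = 0.0223), and −2.61 with the block (adjusted p = 0.00242). There are 2 annotated pseudogenes that carry the symbol of Rps24, so reads could be split between copies. The other 78 ribosomal protein genes were not called, and the median of all 79 was −0.72 (−0.76 with zero counts at 3), where all genes had −0.63 (−0.08). Over the 57 with 10 counts in each marrow fraction it was −0.40, against −0.22 in all 4131 such genes. Rps6, a phosphorylation target of the mTOR pathway, stood at 21.2, 3.27 and 10.3 CPM in BM_T and 37.1, 19.1 and 22.8 in BM_P, with a sorted minus marrow difference of −1.22 ± 0.68 (adjusted p = 0.401). Rack1, a scaffold on the small subunit, had −0.49 ± 0.49 (adjusted p = 0.691), and Rplp0, a stalk protein of the large subunit, −0.85 ± 0.55 (adjusted p = 0.479).

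The elongation factor Eef1a1, which carries aminoacyl-tRNA to the ribosome, was higher in polysomal than in total RNA in marrow (1.80 ± 0.43, adjusted p = 0.0277) and did not pass the test of sorted minus marrow. It stood at 538, 237 and 186 CPM in BM_T and 1803, 832 and 719.6 in BM_P. Sorted cells ranged over 307 to 504 CPM in total and 308 to 722 in polysomal RNA. The marrow fractions were thus apart and the sorted fractions overlapped. The difference was −1.66 ± 0.51 (edgeR adjusted p = 0.118), and with the block −1.72 (adjusted p = 0.00388), which passed. Pabpc1, the poly(A)-binding protein, gave −1.17 ± 0.36 (adjusted p = 0.116, 0.023 with the block). In sorted cells it fell from 110.1 to 153 CPM in total to 44.9 to 89.7 in polysomal RNA (adjusted p = 0.00327 with the block). Eef2, which moves the ribosome along the mRNA, had −0.78 ± 0.40 and Tpt1, another TOP mRNA, −0.26 ± 0.52, and neither passed. Of 25 other TOP mRNAs none was called, with 8 at an unadjusted p under 0.05, and the block called 4 lower (1.85% of all genes were). Their median was −0.86, or −0.80 over the 20 with 10 counts in each marrow fraction, where all 4131 such genes had −0.22.

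The rest of the translation machinery held 1 called gene. None of 40 initiation and elongation factors, 30 genes that control translation and 35 genes of ribosome biogenesis was called by edgeR, with 8, 7 and 7 at an unadjusted p under 0.05, and the block called 1, 0 and 1 of them lower. Among 22 aminoacyl-tRNA synthetase genes and their partners, Aimp1, a scaffold of the multisynthetase complex, was called lower. It had 0 counts in BM_T and 92 over the 3 BM_P libraries, and 4.23, 6.49 and 3.74 CPM in LY6C_T and 4.25, 9.27 and 10.2 in LY6C_P. Its efficiency was at least 3.77-fold lower in sorted cells, and the call was lost with the block (adjusted p = 0.0647). Tested genes with a TOP-like start, 270 of them, had a median difference of −0.63, against −0.61 in 9092 genes without one. None of the 270 was called, against 19 higher and 71 lower of the others. The class rests on the annotated first bases, so ribosomal protein mRNAs annotated otherwise, such as Rps24, are left out of it.

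Cdc42, Ppp1r12a and Fes had lower efficiency in sorted MDSC. Cdc42, a small GTPase that directs actin and cell polarity (ENSMUSG00000006699, chromosome 4, 137319696 to 137357720), stood at 10.6, 34.4 and 26.9 CPM in BM_T and 161, 76.9 and 87.8 in BM_P. In sorted cells it stood at 139, 86.5 and 110.2 in LY6C_T, 129.8, 87.5 and 123 in LY6C_P, 129, 135 and 93.7 in LY6G_T and 115, 114 and 99.5 in LY6G_P. BM_T was the low group, and every other library lay above it. The difference was −2.21 ± 0.46 (adjusted p = 0.0258). Ppp1r12a, which brings a phosphatase to myosin (ENSMUSG00000019907, chromosome 10, 108162193 to 108284475), showed the same order, with 10.6, 9.82 and 6.2 CPM in BM_T, 37.1, 28.9 and 39.4 in BM_P, 29.7 to 42.8 in sorted total and 30.9 to 40.7 in sorted polysomal RNA. Its difference was −2.0 ± 0.38 (adjusted p = 0.0173). Fes, a tyrosine kinase of myeloid cells, had 4.23, 8.18 and 14.5 CPM in BM_T, 32.5, 39.9 and 35.8 in BM_P and 49 to 96.4 in sorted total RNA, and differed by −2.05 ± 0.46 (adjusted p = 0.0369). Actb, the actin of the cytoskeleton, differed by −0.57 ± 0.41 and did not pass (adjusted p = 0.543). None of 26 actin cytoskeleton genes was called in either direction by edgeR, with 8 at an unadjusted p under 0.05 and 2 lower with the block. Cdc42 was not on that list.

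Ncf1, the p47phox organizer of the phagocyte NADPH oxidase, was the called member of 26 tested genes of suppressive function (0.656% of all genes tested were called lower). At ENSMUSG00000015950, chromosome 5, 134220053 to 134229625, it stood at 38.1, 16.4 and 20.7 CPM in BM_T and 91, 99.5 and 98 in BM_P. Levels were 123, 198 and 141 in LY6C_T, 119.6, 179 and 117 in LY6C_P, 113, 105 and 141 in LY6G_T and 107, 102 and 122 in LY6G_P. The fractions of sorted cells overlapped as groups, with the polysomal library the lower one in all 6 same-number pairs, and every BM_P library lay above every BM_T library. The difference was −2.09 ± 0.40 (adjusted p = 0.0184), with −2.11 for LY6C and −2.07 for LY6G. Ncf1 overlaps Gtf2ird2 on the other strand, and no source used here gives the strand setting of the counting. Ncf4, the p40phox subunit, differed by −1.43 ± 0.49 and passed with the block alone (adjusted p = 0.153 without it and 0.0194 with it). Cybb, the membrane subunit gp91phox, differed by −0.62 ± 0.41 and passed neither (adjusted p = 0.491 and 0.415). Arg1 and Nos2, the arginine-consuming enzymes by which MDSC act on T cells, had 0 counts in all 6 marrow libraries. No efficiency in marrow could be given for them. In sorted cells Arg1 ranged over 2.55 to 287 CPM in total and 2.67 to 661 in polysomal RNA, and Nos2 over 0.626 to 126 and 0.769 to 371, with number 6 the highest in both populations.

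**Figure D3:**
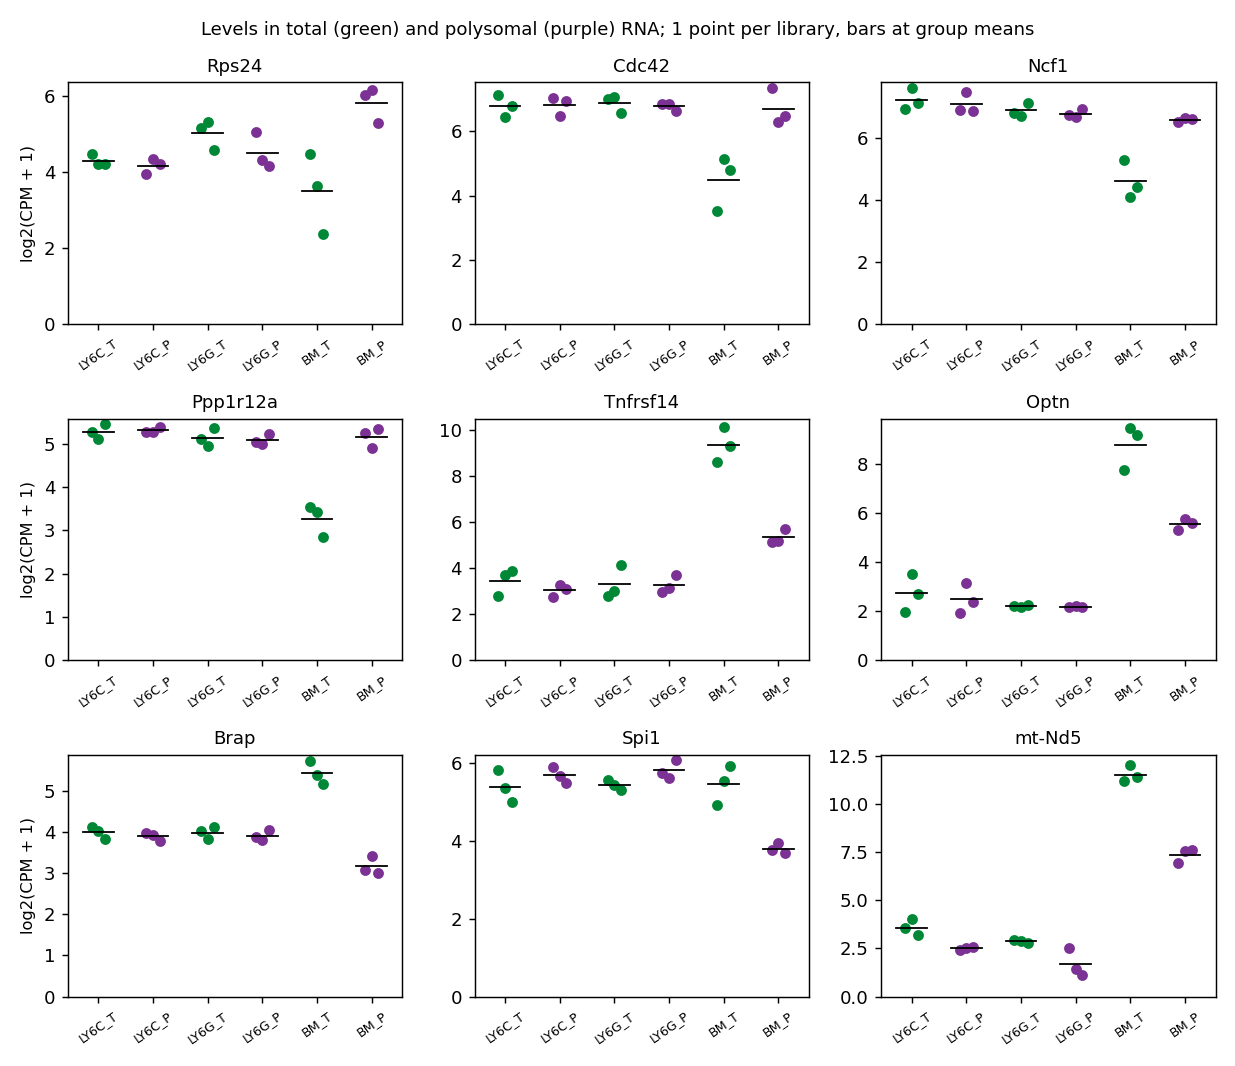
Level of 9 genes as log2(CPM + 1) in each library (points) with the group mean (bar), total RNA in green and polysomal RNA in purple. For Cdc42, Ncf1 and Ppp1r12a the BM_T group is the low one. For Rps24 BM_T has the lowest mean and BM_P the highest, and BM_T overlaps the sorted libraries. For Tnfrsf14, Optn and mt-Nd5 both marrow fractions lie above sorted cells and BM_T is the highest. For Brap and Spi1 the BM_P group is the low one.

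A further 5 of the genes named by rule had lower efficiency. Asxl1, a Polycomb-related cofactor often mutated in myeloid disease (ENSMUSG00000042548, chromosome 2, 153345829 to 153404007), stood at 6.35, 4.91 and 8.26 CPM in BM_T, 34, 31.2 and 41.5 in BM_P, 21.3 to 27 in sorted total and 21.6 to 28.1 in sorted polysomal RNA. It differed by −2.41 ± 0.40 (adjusted p = 0.00661) on 10 counts in BM_T. Ctbp1, a transcriptional corepressor, had 23.3, 16.4 and 20.7 CPM in BM_T and 52.5, 65.3 and 60.4 in BM_P, and its sorted libraries ranged over 40.4 to 52.5 and 40.5 to 50.9. It differed by −1.52 ± 0.34 (adjusted p = 0.0354), the smallest fall of the genes named by rule. Mcrip1, a small protein that binds CtBP corepressors, differed by −2.08 ± 0.47 (adjusted p = 0.0375). Clk3, a kinase of splicing factors, differed by −2.04 ± 0.47 (adjusted p = 0.0399) and the membrane protein Tmem170b by −1.98 ± 0.41 (adjusted p = 0.0241). Each of these 5 genes was higher in every BM_P library than in every BM_T library, by 2.47 ± 0.35 for Asxl1 and 1.82 ± 0.41 for Clk3 on the log2 scale.

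Of the 54 genes without a count in BM_T, 3 are named after their values were seen, since they carry many BM_P counts. Ddhd1, a phospholipase (ENSMUSG00000037697, chromosome 14, 45588467 to 45658143), had 16.8, 22.6 and 28.1 CPM in BM_P, 24.1 to 60.3 in sorted total and 22.3 to 44.1 in sorted polysomal RNA. Its efficiency was at least 14-fold lower in sorted MDSC (adjusted p = 0.0048). Arfrp1, a GTPase of the Golgi, had 20.2, 10.4 and 11.6 CPM in BM_P and 5.52 to 10.2 in sorted total RNA, and was at least 9.72-fold lower (adjusted p = 0.0048). St13, a cofactor of the Hsp70 chaperone, had 19.1, 19.1 and 7.38 CPM in BM_P and 13.9 to 22.8 in sorted total RNA, and was at least 6.74-fold lower (adjusted p = 0.00759). A BM_T library of this depth could miss such genes, so they were not detectable there rather than absent.

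All 29 genes with higher efficiency in sorted MDSC had less polysomal than total RNA in marrow. Tnfrsf14, the herpesvirus entry mediator that binds LIGHT and BTLA on lymphocytes (ENSMUSG00000042333, chromosome 4, 154921933 to 154928563), stood at 389.5, 1129 and 645 CPM in BM_T and 34.2, 35.9 and 51.3 in BM_P. Sorted cells had 5.88, 12.1 and 13.8 in LY6C_T, 5.75, 8.66 and 7.56 in LY6C_P, 5.94, 7.01 and 16.7 in LY6G_T and 6.81, 7.74 and 12.1 in LY6G_P. All marrow libraries lay above all sorted ones, and in marrow total RNA was the higher fraction. The difference was 3.81 ± 0.56 (adjusted p = 0.0048). Optn, which links ubiquitin-marked cargo to autophagosomes (ENSMUSG00000026672, chromosome 2, 5020642 to 5064051), followed the same order at 214, 715 and 581 CPM in BM_T, 38.8, 52.6 and 47.1 in BM_P, 2.92 to 10.5 in sorted total and 2.81 to 7.82 in sorted polysomal RNA. It differed by 3.25 ± 0.56 (adjusted p = 0.00923). An antisense gene overlaps Optn.

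Knl1 had the largest difference of the 22 genes named by rule. It builds the kinetochore on which chromosomes are held in division (ENSMUSG00000027326, chromosome 2, 119047119 to 119105501). It stood at 387, 1085 and 605 CPM in BM_T, 27.1, 33 and 27.1 in BM_P, 1.55 to 14.6 in sorted total and 1.23 to 12.4 in sorted polysomal RNA. It differed by 4.57 ± 1.02 (adjusted p = 0.048), and by 4.43 with the block (adjusted p = 2.3e-07). Topbp1, a checkpoint scaffold, had 91, 260.2 and 143 CPM in BM_T and 29.9, 23.1 and 36.5 in BM_P and differed by 2.53 ± 0.56 (adjusted p = 0.0354). Polh, the polymerase that copies past damaged bases, had 40.2, 80.2 and 62 and 3.14, 5.2 and 4.92 CPM and differed by 4.0 ± 0.62 (adjusted p = 0.0048). Of 32 tested cell cycle genes, however, edgeR without the block called none, with 1 at an unadjusted p under 0.05. With the block 1 was higher and 2 were lower (0.649% and 1.85% of all genes were). Their median was −0.67 (−0.73 with zero counts at 3), where all genes had −0.63 (−0.08).

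For Spi1 and Brap the polysomal fraction of marrow was the lowest group. Spi1, which encodes the myeloid transcription factor PU.1 (ENSMUSG00000002111, chromosome 2, 91082390 to 91115756), is named after its values were seen, as it ranked below the 12 largest rises. It stood at 29.6, 45.8 and 59.9 CPM in BM_T and 12.6, 14.4 and 11.9 in BM_P. Sorted cells had 55.5, 40.6 and 30.9 in LY6C_T, 58.5, 50.1 and 44.5 in LY6C_P, 46.8, 42.8 and 39.2 in LY6G_T and 53.4, 48.3 and 67.6 in LY6G_P. Total RNA was alike in range, with a sorted minus marrow difference of −0.08 ± 0.27, and the 3 BM_P libraries lay below all others. The efficiency differed by 2.14 ± 0.39 (adjusted p = 0.0129). Brap, a ubiquitin ligase that restrains Ras signalling (ENSMUSG00000029458, chromosome 5, 121660563 to 121687256), had 52.9, 40.9 and 35.1 CPM in BM_T, 7.42, 9.83 and 7.03 in BM_P, 13.3 to 16.6 in sorted total and 12.8 to 15.6 in sorted polysomal RNA, and differed by 2.33 ± 0.36 (adjusted p = 0.0048). Unlike Spi1, it also stood higher in BM_T than in any sorted library. Rilpl2, a protein of Rab-dependent transport, had 4.23, 18 and 16.5 and 2, 0.578 and 3.87 CPM in marrow, on 21 and 19 counts, and differed by 2.71 ± 0.59 (adjusted p = 0.034). Zfp626 at 3.29 ± 0.52 and Cfap36 at 2.52 ± 0.46 were called higher as well (adjusted p = 0.0048 and 0.0129). Gla, a lysosomal galactosidase and the called gene of 32 in the lysosome list, had 13 counts in BM_T and 2 in BM_P, and its fractions overlapped in marrow.

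All 7 tested mitochondrially encoded mRNAs, of 13 such genes, had a positive difference, as did 4153 of all 14181 genes tested. The 7 share the same libraries and are not independent. Only 1 of them, mt-Nd5, a subunit of respiratory complex I, was called (0.204% of all genes were). It stood at 2297, 4100 and 2678 CPM in BM_T and 123, 185 and 191 in BM_P. Sorted cells had 10.6, 15.2 and 8.15 in LY6C_T, 4.41, 4.75 and 5.01 in LY6C_P, 6.72, 6.47 and 5.88 in LY6G_T and 4.69, 1.7 and 1.15 in LY6G_P. Polysomal RNA held less of it than total RNA in both kinds of cells, and the gap was wider in marrow. P minus T was −4.19 ± 0.46 in marrow (adjusted p = 0.0002) and −1.30 in sorted cells (adjusted p = 0.00108 with the block), and the difference between them was 2.89 ± 0.52 (adjusted p = 0.0115). The list had a median of 2.89, and with the block all 7 were called higher. All 7 were also lower in polysomal than in total RNA in marrow, and in sorted cells with the block. mt-Co1, of complex IV, differed by 2.30 ± 0.63 (adjusted p = 0.0823, 0.017 with the block). Mitochondrial ribosomal RNA made up 57.1% to 65.8% of BM_T and 31.0% to 43.7% of BM_P counts. In sorted libraries it made up 1.66% to 30.6% of total and 0.313% to 4.65% of polysomal counts. Its share was lower in the polysomal library of each number, and the ratio of the shares was wider in sorted cells than in marrow. These are shares of all counts without TMM factors, so their ratio cannot be set against the CPM of mt-Nd5. The part of mitochondrial ribosomal RNA in the result was not tested.

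Nuclear genes for mitochondrial proteins were followed beside them. Of 73 nuclear genes of oxidative phosphorylation edgeR called none, with 13 at an unadjusted p under 0.05, and their median was −0.33 (−0.11 with zero counts at 3). Both Trub2 and Aurkaip1, named by rule, serve the organelle. Trub2, a pseudouridine synthase of mitochondrial RNA, stood at 57.2, 105 and 47.5 CPM in BM_T, 3.71, 13.9 and 7.38 in BM_P and 5.4 to 11.7 in sorted total RNA, and differed by 2.61 ± 0.54 (adjusted p = 0.0241). Aurkaip1, a protein of the mitochondrial ribosome, stood at 8.47, 13.1 and 37.2 and 4.28, 6.36 and 4.57 CPM in marrow and differed by 2.3 ± 0.54 (adjusted p = 0.0478).

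Most listed nuclear and host-gene long noncoding RNAs were lower in polysomal than in total RNA of sorted cells with the block. Malat1, which gathers at nuclear speckles (ENSMUSG00000092341, chromosome 19, 5795690 to 5802672), stood at 1244, 817 and 2014 CPM in LY6C_T, 574, 528 and 1043 in LY6C_P, 1940, 1181 and 3127 in LY6G_T and 917, 518 and 713 in LY6G_P. In marrow it stood at 1385, 1098 and 967 in BM_T and 2480, 1823 and 1884 in BM_P. Polysomal RNA was the lower fraction in each sorted pair and the higher one in each marrow library. The difference was −2.08 ± 0.51, just outside the threshold (adjusted p = 0.0552), and it passed with the block (adjusted p = 0.00163). Neat1, the scaffold of paraspeckles, differed by −2.15 ± 0.61 (adjusted p = 0.0918, 0.00076 with the block). Of 22 tested members of this list, a chosen set of long noncoding RNAs, edgeR called none, with 8 at an unadjusted p under 0.05. The block called 2 lower. Their median was −1.67, or −1.49 with zero counts at 3. With the block, 18 of the 22 were lower in polysomal than in total RNA in sorted cells (4.46% of all genes were). Marrow had none of them called in either direction without the block, so these counts come from unlike fits. The median of P minus T was −1.11 in sorted cells and 0.77 in marrow.

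Ferritin mRNAs were lower in polysomal than in total RNA of sorted cells with the block. Ftl1, the light chain of ferritin (ENSMUSG00000050708, chromosome 7, 45457944 to 45459884), stood at 413, 216 and 1135 CPM in LY6C_T, 181, 142 and 294 in LY6C_P, 773, 692 and 575 in LY6G_T and 321, 215 and 226 in LY6G_P. Marrow had 50.8, 60.6 and 37.2 in BM_T and 64.8, 37.6 and 73.4 in BM_P. Each sorted pair was lower in polysomal RNA, while the marrow fractions overlapped. P minus T was −1.47 in sorted cells (adjusted p = 0.00065 with the block) and 0.24 ± 0.48 in marrow (adjusted p = 0.863). The difference was −1.71 ± 0.58 and passed with the block alone (adjusted p = 0.146 without it and 0.0387 with it). Fth1, the heavy chain, had −1.50 in sorted cells (adjusted p = 0.00178 with the block) and 0.20 ± 0.60 in marrow, and a difference of −1.70 ± 0.72 that passed in neither fit (adjusted p = 0.245 and 0.0806). Of 10 mRNAs with iron-responsive elements edgeR called none, with 2 at an unadjusted p under 0.05, and their median was −1.03. With the block, 3 of the 10 were lower in polysomal RNA of sorted cells (4.46% of all genes were). Pseudogenes of Ftl1 are annotated, so copies could share its reads.

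No gene of the myeloid and erythroid identity lists was called by edgeR without the block. Of 32 neutrophil maturation genes edgeR called none, with 6 at an unadjusted p under 0.05, and the block called 6 lower. Over all genes the block called 1.85% lower, and 2283 of 14181 had an unadjusted p under 0.05. The median of the 32 was −1.18, or −0.92 over the 19 with 10 counts in each marrow fraction. S100a9, a calcium-binding protein of granulocytes, stood at 269, 236 and 209 CPM in BM_T and 1122, 705 and 607 in BM_P, and at 205, 626 and 92.9 in LY6C_T, 212, 804 and 196 in LY6C_P, 227, 297 and 164 in LY6G_T and 281, 312 and 212 in LY6G_P. It was higher in polysomal RNA in all 3 marrow numbers and, by a smaller ratio of CPM, in each of the 6 sorted pairs. The difference was −1.46 ± 0.70 (adjusted p = 0.31, 0.0186 with the block). S100a8, its partner, differed by −1.55 ± 0.67 (adjusted p = 0.253), and Lyz2, the lysozyme of phagocytes, by −0.39 ± 0.47 (adjusted p = 0.759). Genes of the primary granule had a median of 0.30 over 9 genes (0.12 with zero counts at 3), and none was called or at an unadjusted p under 0.05. Among 31 monocyte and macrophage genes edgeR called none, with 2 at an unadjusted p under 0.05, the block called 1 lower, and the median was −0.68. With zero counts at 3 it was 0.05, above the −0.08 of all genes, so the side of this list turned with the treatment of zeros. Itgam, which encodes CD11b, differed by −0.60 ± 0.81 (adjusted p = 0.796) and Ly6c2, of the Ly6C antigen, by −1.25 ± 0.95 (adjusted p = 0.569). Of 20 erythroid genes edgeR called none, with 5 at an unadjusted p under 0.05, the block called 4 lower, and the median was −1.24 (−1.27 with zero counts at 3). Hba-a1, an alpha globin, stood at 157, 58.9 and 16.5 CPM in BM_T and 470.1, 149 and 139 in BM_P against at most 0.725 in sorted cells, and differed by −2.0 ± 1.44 (adjusted p = 0.547). Globin values in sorted cells rest on few counts.

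No gene of the stress and growth lists was called by edgeR without the block. The unfolded protein response had the value nearest to 0 of these, −0.05 over 22 genes. It had 5 genes at an unadjusted p under 0.05, and the block called 1 lower. Of 26 ATF4 response genes, which include mRNAs with upstream reading frames, none was called and 2 had an unadjusted p under 0.05. Atf4 itself differed by −0.34 ± 0.49 (adjusted p = 0.82). NF-kB feedback and mRNA decay genes had a median of −1.29 over 23 genes (−1.04 with zero counts at 3) and NRF2 antioxidant genes −1.08 over 20 (−0.88). Without the block none was called, with 3 and 4 at an unadjusted p under 0.05. The block called 1 gene lower in each of these lists and 3 of 21 cytosolic chaperones (1.85% of all genes were). Replication-dependent histone genes had −0.53 over 59 genes (−0.19). With the block, 31 of these 59 were higher in polysomal RNA of sorted cells (2.87% of all genes were). Marrow had 1 without the block (2.6% of all genes), so these counts come from unlike fits. In all, edgeR without the block called 5 genes over the 39 lists, Rps24, Aimp1 and Ncf1 lower and mt-Nd5 and Gla higher.

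**Figure D4:**
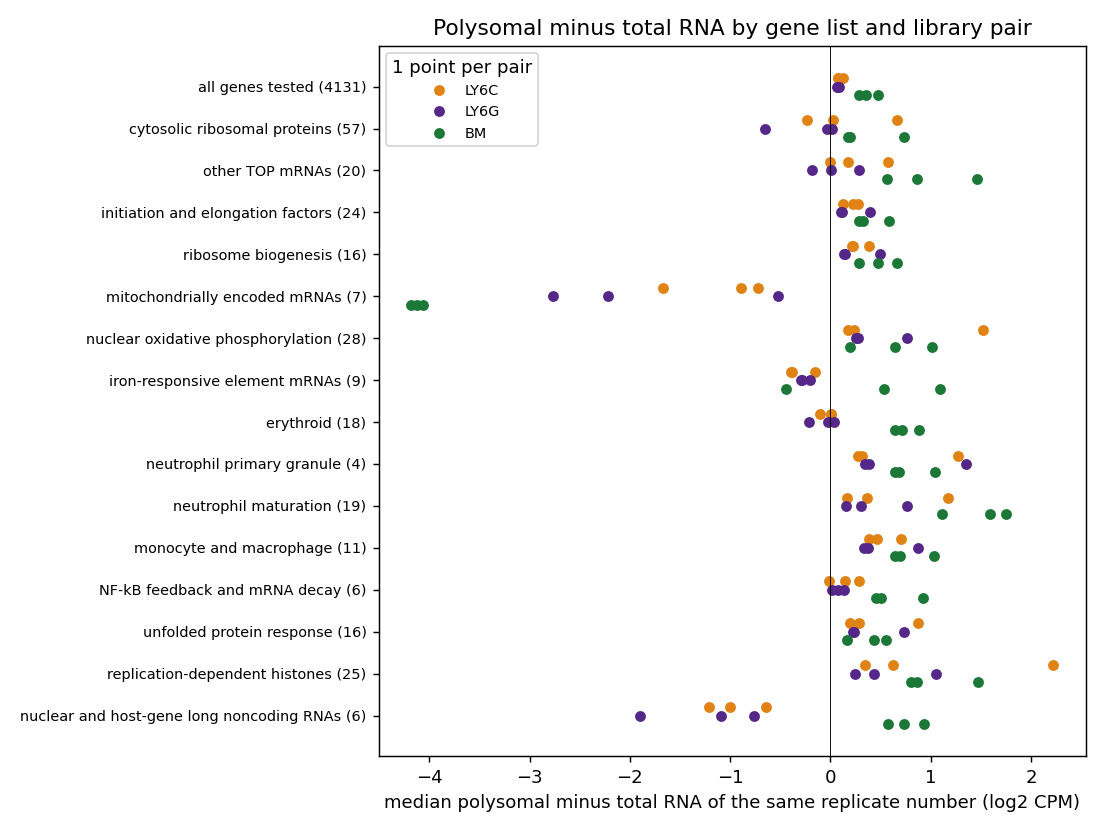
Median of polysomal minus total RNA (log2 CPM) for each same-number pair of libraries, over the members of a gene list with at least 10 counts in each marrow fraction (number in parentheses). The 3 marrow points lie left of all 6 sorted points for mitochondrially encoded mRNAs and right of them for erythroid genes, NF-kB feedback genes and long noncoding RNAs; for all 4131 genes the sorted points lie at 0.07 to 0.12 and the marrow points at 0.28 to 0.47.

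The LY6C and LY6G populations were also set against marrow one at a time. In the fit of all 18 libraries, LY6C minus marrow gave 12 genes higher (0.0846%) and 36 lower (0.254%), and LY6G minus marrow 14 higher (0.0987%) and 45 lower (0.317%). All 29 genes called higher and all 93 called lower over both populations had the same sign in each, as did 12969 of all 14181 tested. Both comparisons use the same marrow libraries, and their mean chose the called genes, so this is a description. The differences were −2.37 and −2.74 for Rps24 in LY6C and LY6G, 2.08 and 2.20 for Spi1, 3.63 and 4.00 for Tnfrsf14, and 2.93 and 2.85 for mt-Nd5. A direct test of LY6G minus LY6C efficiency in edgeR called 0 genes; 7 had an unadjusted p under 0.05, and the adjusted p was 1 for each. Without the 4 LY6C libraries of numbers 3 and 6, whose protein-coding share was 37.3% to 72.4%, 5 genes were higher and 2 lower.

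Transcript length and base composition were compared as a description. The median coding length was 1701 bases for 23 protein-coding genes called higher, 1506 for 91 called lower and 1386 for 11781 tested, and the median GC content was 49.1%, 50.5% and 50.5%. Over 4844 protein-coding genes with at least 60 marrow counts, Spearman's rank correlation of the efficiency difference was −0.03 with coding length and −0.02 with GC content. In sorted cells alone, P minus T had a rank correlation of −0.19 with transcript length and 0.215 with GC content, and in marrow −0.08 and 0.1. These are correlations across genes, which share libraries and are not independent replicates.

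**Figure D5:**
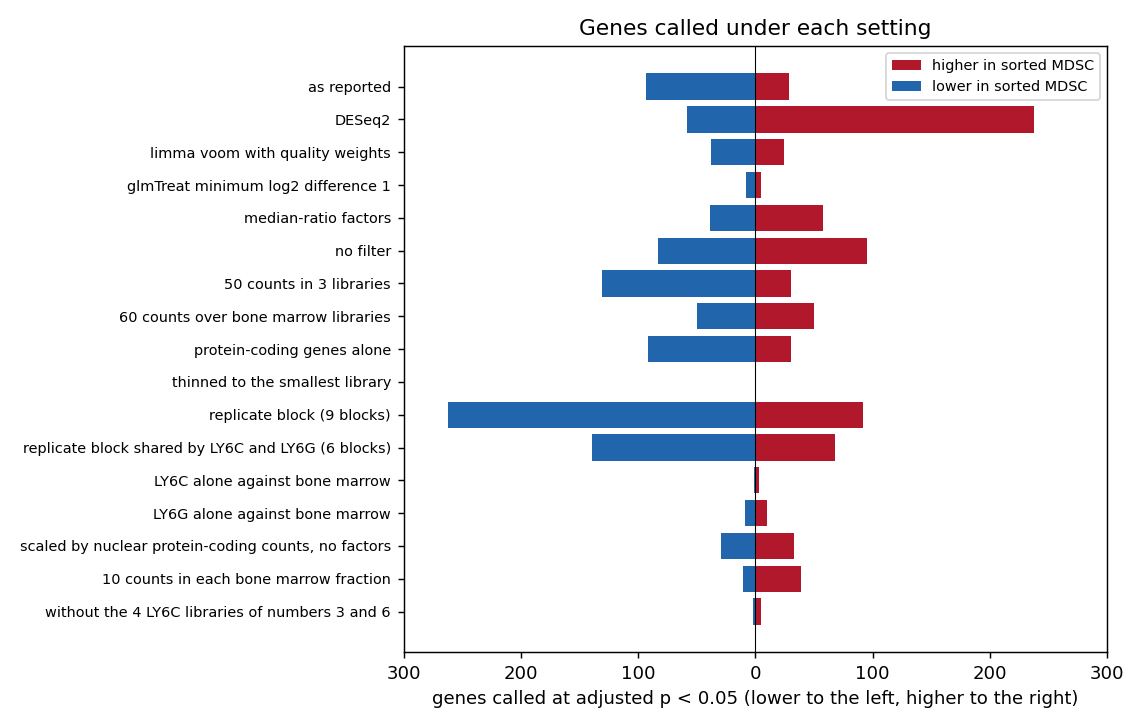
Number of genes called at an adjusted p under 0.05 under each setting, with genes higher in sorted MDSC to the right and lower to the left. The reported fit has 29 and 93, DESeq2 has 238 and 58, the block of 9 has 92 and 262, and thinning every library to the depth of the smallest leaves none.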

How the data were processed

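The authors deposited raw read counts per gene for 18 libraries of total or polysomal RNA, 3 per group, and no column was left unused. Per the submitters' processing notes, FastQC, STAR 2.5.2a, DESeq and DESeq2 were used with GRCm38. The counting program, annotation and strand setting are not given in the sources used here. Symbols and coordinates came from GENCODE M21, which named 54809 of 54838 identifiers, and sequences from RefSeq.

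The counts were fitted in 1 edgeR 4.0.16 model (R 4.3.3) with a mean per group and no block, after filterByExpr (minimum count 10) and TMM scaling. TMM scaling sets each library's size by most genes rather than by its total, so CPM of marrow libraries is large per count. Polysomal minus total RNA of sorted cells, as the mean of LY6C and LY6G, minus that of marrow was tested by the robust quasi-likelihood F test, with Benjamini-Hochberg adjustment over the 14181 tested genes. The threshold for a call was an adjusted p of 0.05. Log2 CPM used a prior count of 2. A gene with 0 counts in a marrow group took 3 counts over that group, which is 1.91 CPM in BM_T and 0.371 in BM_P, as its floor. Floors cover counting error only. The fit was tested on simulated data.

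Replicate libraries of 1 group differed beyond sampling noise, with a chi-square per degree of freedom of at least 36.3. Deviations of P and T libraries with the same number correlated at 0.697, 0.678 and 0.596 in LY6C, at 0.557, 0.731 and 0.737 in LY6G, and at 0.027, 0.011 and 0.0047 in marrow. The numbers in the sample names thus paired the sorted libraries and left marrow undecided, and values with a replicate block of 9 (1 per kind of cell and number) are given where they change a call.

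The gene lists, 39 in all, and the comparison were chosen with earlier results of these data known. Named genes had an adjusted p under 0.05, at least 10 CPM in the highest group, at least 10 counts in each marrow fraction, the same sign in LY6C and LY6G, and no overlap between the P minus T differences of sorted and marrow pairs. Unnamed gene models were left out. The rule took up to 12 of the largest rises and of the largest falls, and only 10 falls qualified. It added up to 4 members of each list by smallest p and a set of followed genes. The text gives a part of these last 2. Alternatives included DESeq2 1.42.0, limma 3.58.1 voom, other filters, scalings and blocks, and leaving out each library. Figures were drawn with matplotlib 3.10.9.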

Additional observations from a re-analysis of the deposited data

Results flagged for a closer look

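The results here are those in which polysomal minus total RNA differed between sorted MDSC and bone marrow by the test of the difference itself (edgeR, adjusted p under 0.05). In number these were 29 genes higher and 93 lower in sorted cells. By size, the named rises on the log2 scale were 4.57 for Knl1, 4.00 for Polh, 3.81 for Tnfrsf14, 3.29 for Zfp626, 3.25 for Optn, 2.89 for mt-Nd5, 2.71 for Rilpl2, 2.61 for Trub2, 2.53 for Topbp1, 2.52 for Cfap36, 2.33 for Brap and 2.30 for Aurkaip1. The named falls were −2.55 for Rps24, −2.41 for Asxl1, −2.21 for Cdc42, −2.09 for Ncf1, −2.08 for Mcrip1, −2.05 for Fes, −2.04 for Clk3, −2.0 for Ppp1r12a, −1.98 for Tmem170b and −1.52 for Ctbp1. In each of these 22 genes the 6 sorted pairs did not overlap the 3 marrow pairs, a condition of their choice that 3478 of the 14181 tested genes met. No group had enough libraries to be searched for one that lies far from the others.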

How the results depend on the processing

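The 29 genes higher and 93 lower in sorted MDSC changed in number under most alternatives. With DESeq2 they were 238 and 58, with voom 24 and 38, with a test against a minimum log2 difference of 1 they were 5 and 8, and with median-ratio factors 58 and 39. Without a filter they were 95 and 83, with 50 counts in 3 libraries 30 and 131, with 60 counts over marrow 50 and 50, and with protein-coding genes alone 30 and 92. The replicate block gave 92 and 262 with 9 blocks and 68 and 139 with 6, and LY6C or LY6G libraries fitted alone with marrow gave 3 and 1 or 10 and 9. Among choices made after seeing the data, scaling by nuclear protein-coding counts gave 33 and 29, 10 counts in each marrow fraction 39 and 11, and leaving out the 4 LY6C libraries of numbers 3 and 6 gave 5 and 2. Thinning every library to 61565 counts left 0 and 0 of 4700 genes (edgeR, 173 at an unadjusted p under 0.05), at a depth that also turned Fes to 1.43, Tmem170b to 0.0501 and Ctbp1 to 2.76, none of them called. The cause of the other changes was not tested. Leaving out 1 library gave 16 to 67 higher and 40 to 132 lower. Numbers moved by over 1.5 times without BM_P 1 (16 and 45), BM_P 3 (18 and 55), LY6C_P 3 (17 and 40), LY6C_T 6 (19 and 44), LY6G_P 2 (16 and 43), LY6G_P 3 (18 and 42), LY6G_P 6 (19 and 44), LY6G_T 2 (17 and 44), LY6G_T 3 (19 and 50) and LY6G_T 6 (18 and 47), in the higher number without BM_T 1 (67) and in the lower one without LY6C_T 3 (45). Of the 22 genes named by rule, 21 stayed called with DESeq2, 9 with voom, 14 with median-ratio factors and 22 with either block. Without 1 library 11 to 20 stayed called. Fewest stayed with thinning (0), the minimum log2 difference of 1 (3) and without the 4 LY6C libraries (3). LY6C alone with marrow kept 3 and LY6G alone 5. Apart from the 3 reversals under thinning, each of these 22 kept its direction in every alternative that tested it. Polh and Tnfrsf14 stayed called in 33 of 34 alternatives, and Clk3 and Ctbp1 in 9. For the lists, the median stayed below that of all genes in all alternatives that tested them for neutrophil maturation, other TOP mRNAs, NF-kB feedback, immediate early, T and NK cell genes and long noncoding RNAs, and above it for mitochondrially encoded mRNAs and primary granule genes. The T and NK cell list held 3 tested genes, 2 of them with 0 counts in BM_T. Its median of −10.3 was −0.79 with zero counts at 3. Of 9 primary granule genes, 5 had a positive and 4 a negative difference. Depth in total marrow RNA limits what could be seen, since a gene at 1 CPM there gave less than 1 count.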

Other observations

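Small RNAs that act outside translation were often lower in polysomal than in total RNA of sorted cells. All 11 tested RNAs of the spliceosome and other particles were lower in polysomal RNA of sorted cells with the block (4.46% of all genes). In marrow 1 was called lower, without the block (0.797% of all genes). The median of P minus T was −2.75 in sorted cells and −1.16 in marrow (−2.71 with zero counts at 3). The sign of their sorted minus marrow median, −0.42, turned to 0.28 with that floor. Of 28 small nucleolar and Cajal body RNAs, which guide changes of ribosomal and spliceosomal RNA, 10 were lower in polysomal RNA of sorted cells with the block and 2 in marrow. Their median in marrow was −0.04 (−0.78 with zero counts at 3). Cholesterol synthesis and uptake genes had the lowest fitted median of any protein-coding list with over 5 tested members, −2.08 over 26 genes, but 11 of them had 0 counts in BM_T, and with the floor it was −0.06. Of 16 stromal and endothelial genes, abundant in marrow and nearly absent from sorted cells, edgeR called none, with 1 at an unadjusted p under 0.05, and their median was 0.08.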
